A study of Danio rerio with 23 samples.

Results

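The Rev-erb and ROR receptors of the zebrafish retina were examined after light-induced retinal damage (LIRD) and in control retinae (CTRL). The members were all rows of the count table whose zebrafish symbol is nr1d1, nr1d2, nr1d4, rora or rorc with any paralog letter. The rule returned 10 of 25281 genes, 5 Rev-erb genes (NR1D1, NR1D2, nr1d2a, nr1d4a and nr1d4b) and 5 ROR genes (RORA, rorab, rorc, rorca and rorcb). The genes known in zebrafish as nr1d2b and roraa are listed under the symbols NR1D2 and RORA.

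Rev-erb and ROR receptors are nuclear receptors that compete for the same response element in the DNA, where Rev-erbs repress transcription through a corepressor complex that holds the deacetylase HDAC3 and RORs activate it. In the vertebrate circadian clock they form the stabilizing loop: the BMAL and CLOCK activators drive the Rev-erb genes, and Rev-erbs and RORs in turn act in opposite directions on the bmal1 gene. Heme is the ligand of the Rev-erbs, and in mouse the related RORB is needed for photoreceptor development.

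Bulk poly(A) RNA-seq libraries of retinae from 9 CTRL and 8 LIRD samples were compared. The study describes pigmented larvae that were raised in the dark, exposed at 4 days post-fertilization (dpf) to 50000 lux of white light for 3.5 h and returned to the dark, with 50 retinae pooled for a library 48 h later, and CTRL larvae that did not receive the bright light. It kept wild-type TU fish and the Tg(fli:gal4;UAS:mCherry) reporter line, and which of them gave the RNA is not given in the sources used here. The GEO labels differ from this: they describe adult fish on a cycle of 14 h light and 10 h dark, an exposure to 15000 lux for 24 h, and dissection right after it. Age, dose and interval are therefore uncertain here, and the hour of the day at which the retinae were collected, which bears on any clock gene, is not given in the sources used here. The labels list 23 samples (12 CTRL and 11 LIRD), of which 6 have no column in the count table used here. The study's methods say that libraries judged outliers in a principal component analysis were left out.

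Total counts lay between 70932504 and 144932681 in CTRL and between 97506021 and 150347385 in LIRD. Summed levels of 10 rod genes (3703 to 12996 CPM, counts scaled to library size) and of 8 cone genes (5443 to 11178 CPM) showed photoreceptor RNA in every library. Single markers of retinal cells differed at an unadjusted p under 0.05. The cone genes PDE6C (log2 fold change -0.68) and both genes listed as ARR3 (-0.71 and -0.66) were lower in LIRD, as the Rev-erb genes were. So were the Müller glia gene SLC1A2 ENSDARG00000052138 (-0.92) and the pigment cell gene TYR (-0.36). The cone gene GNGT2 ENSDARG00000010680 (0.87) and the Müller glia gene rlbp1a (0.30) were higher. As lists these were mixed, with higher means for 4 of 8 cone genes (median log2 fold change -0.06) and 6 of 10 Müller glia genes (median 0.19). The other gene listed as SLC1A2 had a value of -0.19. Of 10 rod genes, 0 had an unadjusted p under 0.05, against 7.64% of all genes tested. By edgeR or DESeq2, 0 genes of the cone, rod and Müller glia lists were DEGs. All 10 genes of the liver marker list had higher means in LIRD at an unadjusted p under 0.05, against 4.9% of all genes tested. Their summed level was 5664 to 8991 CPM in CTRL and 7217 to 15942 CPM in LIRD. Higher means at such a p were also seen for 5 of 7 erythrocyte genes (257 to 508 CPM in CTRL, 409 to 1373 CPM in LIRD). The same held for 3 of 7 microglia and macrophage genes. DESeq2 called 3 of the 7 erythrocyte genes, against 0.33% of all genes, and 0 of the liver and of the microglia and macrophage genes. All 10 exocrine pancreas genes and all 8 skin genes had higher means too, with 1 of each list at an unadjusted p under 0.05. No gene of these lists was at 0 in any library. The part of these cell types and tissues in the receptor values was not tested. The index numbers in the library names were split here into a first series (7 to 10) and a second series (11 to 29). The first holds replicates 1 and 2 of each condition, and the second 7 CTRL and 6 LIRD libraries. What the series stand for is not given in the sources used here. In the second series all CTRL numbers (11 to 20) precede all LIRD numbers (22 to 29), so number order and condition cannot be told apart. There were 2 pairs of nearly identical libraries, CTRL replicate 3 with 11 and LIRD replicate 5 with 11. The SD of their log2 ratios over genes was 0.132 and 0.107, against at least 0.275 and 0.359 for any other pair of the same condition. They still differed beyond sampling noise, which does not show that they are independent samples. The labels list them as separate biological replicates, and whether the libraries of a pair share their RNA is not known. They were kept as separate libraries, so p-values count each of them, except where merging or averaging is named. Values after merging are given where they matter, and DESeq2 was not run on merged libraries.

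Rev-erb means were lower in LIRD for all 5 genes and ROR means were higher for 4 of 5, but no receptor gene reached the study's threshold for a differentially expressed gene (DEG), a change of over 1.5-fold with a false discovery rate (FDR) under 0.05 by edgeR over all 22503 genes tested. All 10 members passed the filter on low counts. DEGs numbered 9 of all genes tested (0.04%), with 8 higher (0.0356%) and 1 lower in LIRD (0.00444%). At an unadjusted p under 0.05, 4 of 5 Rev-erb genes were lower in LIRD, against 2.74% of all genes tested, and 3 of 5 ROR genes were higher, against 4.9%. In either direction these were 7 of 10 receptor genes, against 7.64%. DESeq2, the tool of the study, called 80 genes (0.33% of 24258), nr1d4a among them and no ROR gene, whereas limma-voom called 0 receptor genes. The study reports NR1D1, nr1d4a and nr1d4b as downregulated after LIRD, in an enrichment analysis of its DEGs. In the DESeq2 fit made here, NR1D1 had an FDR of 0.087 and nr1d4b one of 0.12. The median log2 fold change was -1.07 over the Rev-erb genes and 0.25 over the ROR genes, beside 0.017 over all genes tested. The libraries overlapped between the conditions for every member. Non-overlapping libraries were seen in 0.0711% of all genes. All 8 LIRD libraries lay above the CTRL median for 0 receptor genes, and for 1.49% of all genes. These p-values measure the spread between libraries, and in bulk RNA fewer cells of a type and less RNA per cell cannot be told apart. Gene lengths were not used, so levels are compared between conditions and not between genes.

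**Figure D1:**
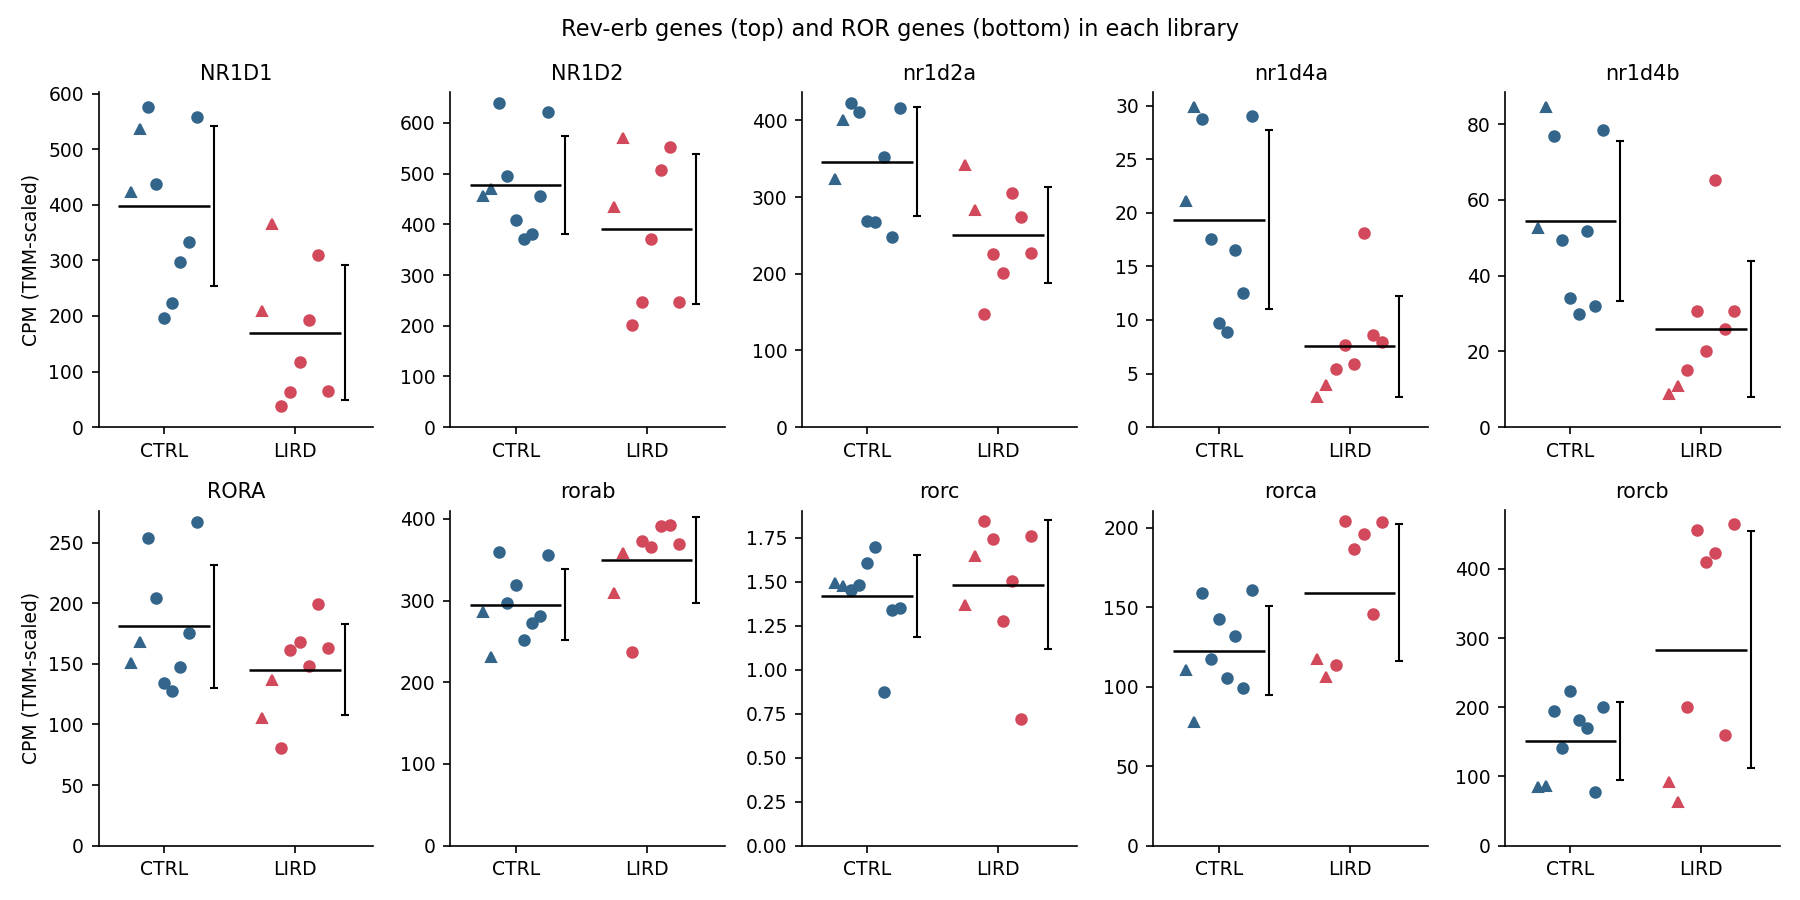
Level of each receptor gene (CPM after TMM scaling, linear axis from 0) in every CTRL (blue) and LIRD (red) library, with triangles for the first and circles for the second index series, the horizontal line for the mean and the bar beside it for 1 SD. Most LIRD points of NR1D1, nr1d4a and nr1d4b lie at or under the lowest CTRL points, and the LIRD points of rorcb form a low and a high set.

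NR1D1, the Rev-erb alpha gene and the best studied repressor of bmal1, ranged from 196 to 576 CPM in CTRL (median 423) and from 38.4 to 365 CPM in LIRD (median 155). All 8 LIRD libraries lay below the CTRL median, a pattern shown by 1.43% of all genes tested, and 5 lay below every CTRL library. The mean was 398 ± 143 CPM (SD, n = 9) in CTRL and 170 ± 121 CPM (SD, n = 8) in LIRD, a ratio of 2.34 between CTRL and LIRD. The log2 fold change was -1.23 (SE 0.39, 95% interval -2.05 to -0.41), with an unadjusted p of 0.0055 and an edgeR FDR of 0.41. The near-identical pairs stood at opposite ends of this range, with CTRL replicates 3 and 11 at 576 and 557 CPM and LIRD replicates 5 and 11 at 63.0 and 64.4 CPM. After these pairs were merged, the log2 fold change of NR1D1 was -1.02 (unadjusted p = 0.021).

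NR1D2 and nr1d2a are the co-orthologs of the Rev-erb beta gene, which acts alongside Rev-erb alpha. NR1D2 ranged from 371 to 639 CPM in CTRL (median 457) and from 201 to 571 CPM in LIRD (median 402). Its LIRD libraries lay on both sides of the CTRL median, 5 below and 3 above, and its log2 fold change of -0.29 (SE 0.20, 95% interval -0.72 to 0.14) had an unadjusted p of 0.18 and an FDR of 0.70 by edgeR, with -0.15 after merging of the pairs. For nr1d2a, CTRL libraries held 247 to 423 CPM (median 353) and LIRD libraries 148 to 342 CPM (median 251). All 8 LIRD libraries of nr1d2a were below the CTRL median and 4 were below every CTRL library. The log2 fold change of nr1d2a was -0.46 (SE 0.16, 95% interval -0.80 to -0.13, unadjusted p = 0.0095, edgeR FDR = 0.47).

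The nr1d4 genes form a further Rev-erb group, kept in fish and absent from mammals. In CTRL, nr1d4a ranged from 8.86 to 29.9 CPM (median 17.6), and in LIRD from 2.84 to 18.2 CPM (median 6.76). Of the 8 LIRD libraries, 7 lay below every CTRL library, and the exception was LIRD replicate 9 at 18.2 CPM. Its mean of 19.3 ± 8.35 CPM (SD, n = 9) in CTRL and 7.54 ± 4.73 CPM (SD, n = 8) in LIRD gave a ratio of 2.56 between CTRL and LIRD. The log2 fold change of -1.36 (SE 0.33, 95% interval -2.06 to -0.66) had an unadjusted p of 0.00067, which ranked 68 among all genes tested, and an edgeR FDR of 0.22. In DESeq2 the same log2 fold change had an FDR of 0.011. Without LIRD replicate 9 the log2 fold change was -1.68 and the edgeR FDR 0.065. With the near-identical pairs merged, the log2 fold change of nr1d4a was -1.27 (unadjusted p = 0.0029, edgeR FDR = 0.53). The DESeq2 call counts the libraries of these pairs separately.

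The paralog nr1d4b held 29.9 to 84.7 CPM in CTRL (median 51.8) and 8.64 to 65.3 CPM in LIRD (median 23.05). In LIRD, 5 of 8 libraries lay below every CTRL library, and replicate 9 was again the highest. For nr1d4b this came to a log2 fold change of -1.07 (SE 0.34, 95% interval -1.79 to -0.35), with an unadjusted p of 0.0057 and an edgeR FDR of 0.41. After merging of the near-identical pairs it was -1.03 (unadjusted p = 0.014, edgeR FDR = 0.68). The smallest counts behind the low values of these genes were 359 reads for nr1d4a and 1002 reads for nr1d4b, so counting error is small beside the spread between libraries.

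By gene order in RefSeq (assembly GRCz12tu, which is not the build of the counts), nr1d4a overlaps rarga and nr1d4b overlaps rargb, both genes of the retinoic acid receptor gamma. The 2 genes listed as RARG had log2 fold changes of -0.10 and -0.32, with an edgeR FDR of 0.70 for both. Among the other receptors, rorcb overlaps cactin, RORA, rorab and rorc overlap unnamed loci, and NR1D1, NR1D2, nr1d2a and rorca overlap no other gene. The study counted reads by strand, but the strands of the overlapping genes were not examined here. The part of their reads in the receptor counts was not tested.

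Among the ROR genes, RORA and rorab are the co-orthologs of ROR alpha, an activator of bmal1 in mammals. RORA held 128 to 267 CPM in CTRL (median 168) and 80.7 to 199 CPM in LIRD (median 155). Of the 5 ROR genes it was the one with a lower mean in LIRD, at a log2 fold change of -0.32 (SE 0.18, 95% interval -0.69 to 0.06, unadjusted p = 0.095, edgeR FDR = 0.70), and 7 of 8 LIRD libraries lay below the CTRL median. Its paralog rorab had the opposite sign. CTRL libraries of rorab held 231 to 359 CPM (median 286), and LIRD libraries 237 to 392 CPM (median 367). In rorab, 5 LIRD libraries were above every CTRL library, and LIRD replicate 4 at 237 CPM stood apart from the other 7. The log2 fold change of rorab was 0.25 (SE 0.11, 95% interval 0.0058 to 0.48), with an unadjusted p of 0.045 and an FDR of 0.64 by edgeR.

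The remaining RORs belong to the ROR gamma group, whose mouse gene is known for the T helper 17 lineage and for binding the same clock elements. The gene listed as rorc was nearly silent, at 0.87 to 1.70 CPM in CTRL and 0.72 to 1.84 CPM in LIRD (79 to 240 reads per library). Its log2 fold change of 0.06 (SE 0.16, 95% interval -0.28 to 0.40, edgeR FDR = 0.90) changed sign, to -0.0055, without CTRL replicate 8. For rorca, CTRL libraries held 77.5 to 161 CPM (median 118) and LIRD libraries 106 to 204 CPM (median 166). Of the LIRD libraries of rorca, 4 of 8 lay above every CTRL library, and 3 CTRL libraries lay below every LIRD library. For rorca this gave a log2 fold change of 0.38 (SE 0.17, 95% interval 0.02 to 0.73), with an unadjusted p of 0.038 and an edgeR FDR of 0.63.

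The widest range among the RORs was that of rorcb. In CTRL it ran from 78.2 to 224 CPM (median 170), and in LIRD from 62.7 to 464 CPM (median 305). In LIRD, replicates 5, 6, 9 and 11 held 410 to 464 CPM, above every CTRL library, whereas the other 4 held 62.7 to 200 CPM, within or below the CTRL range. The mean was 151 ± 56.0 CPM (SD, n = 9) in CTRL and 284 ± 172 CPM (SD, n = 8) in LIRD, a ratio of 1.87. The log2 fold change of 0.91 (SE 0.36, 95% interval 0.14 to 1.67) had an unadjusted p of 0.023 and an edgeR FDR of 0.57. Replicates 5 and 11 are 1 of the near-identical pairs, and with the pairs merged the log2 fold change was 0.83 (unadjusted p = 0.050). The count of ROR genes that were higher at an unadjusted p under 0.05 depended on single libraries: it went from 3 to 0 without LIRD replicate 5 or 11, and to 1 without CTRL replicate 1, 2, 4, 6 or 10 or without LIRD replicate 6 or 9. For the Rev-erb genes the count of lower genes was 4 whichever library was left out. RORB, outside the rule, had a log2 fold change of -0.13 (edgeR FDR = 0.79).

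Whether the LIRD effect was alike in the 2 index series was asked next, since the first holds 2 libraries of each condition. Fitted alone, the first series gave log2 fold changes of -2.91 for nr1d4a and -2.80 for nr1d4b, both with an edgeR FDR of 0.0095, in a fit that called 17.2% of all genes. In that series nr1d4a held 21.1 and 29.9 CPM in CTRL against 2.84 and 3.92 CPM in LIRD, and nr1d4b held 52.7 and 84.7 CPM against 8.64 and 10.9 CPM. The conditions did not overlap there for either gene, nor for NR1D1, RORA and rorab, but with 2 libraries against 2 the same was true of 67.1% of all genes tested. In the second series, where 0.0178% of genes were called, nr1d4a stood at -0.98 (unadjusted p = 0.012) and nr1d4b at -0.68 (unadjusted p = 0.055), and neither was a DEG.

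The other receptors differed among themselves in this respect. NR1D1 had log2 fold changes of -0.73 in the first and -1.52 in the second series, and nr1d2a of -0.19 and -0.57. NR1D2 changed sign between the series, at 0.13 and -0.44. So did rorcb, at -0.13 in the first series (84.5 and 86.2 CPM in CTRL, 62.7 and 91.6 CPM in LIRD) and 1.05 in the second (unadjusted p = 0.0019, edgeR FDR = 0.38). RORA (-0.39 and -0.29) and rorab (0.38 and 0.22), like the nr1d4 genes, kept their sign and were farther from 0 in the first series. The signs of rorc (0.03 and 0.07) and rorca (0.27 and 0.42) were also the same in both series.

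By an interaction term in edgeR, the effect in the second series minus that in the first was 2.13 for nr1d4b (95% interval 0.75 to 3.51, unadjusted p = 0.0047), 1.94 for nr1d4a (95% interval 0.53 to 3.35, unadjusted p = 0.010) and 1.195 for rorcb (95% interval 0.05 to 2.34, unadjusted p = 0.042). The adjusted values did not pass, with an FDR of 0.24 for both nr1d4 genes and 0.29 for rorcb. An unadjusted p under 0.05 was reached by 16.8% of all genes in this test and an FDR under 0.05 by 0 genes. For the other 7 receptors the difference lay between -0.77 and 0.17, with unadjusted p-values of 0.249 or more.

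**Figure D2:**
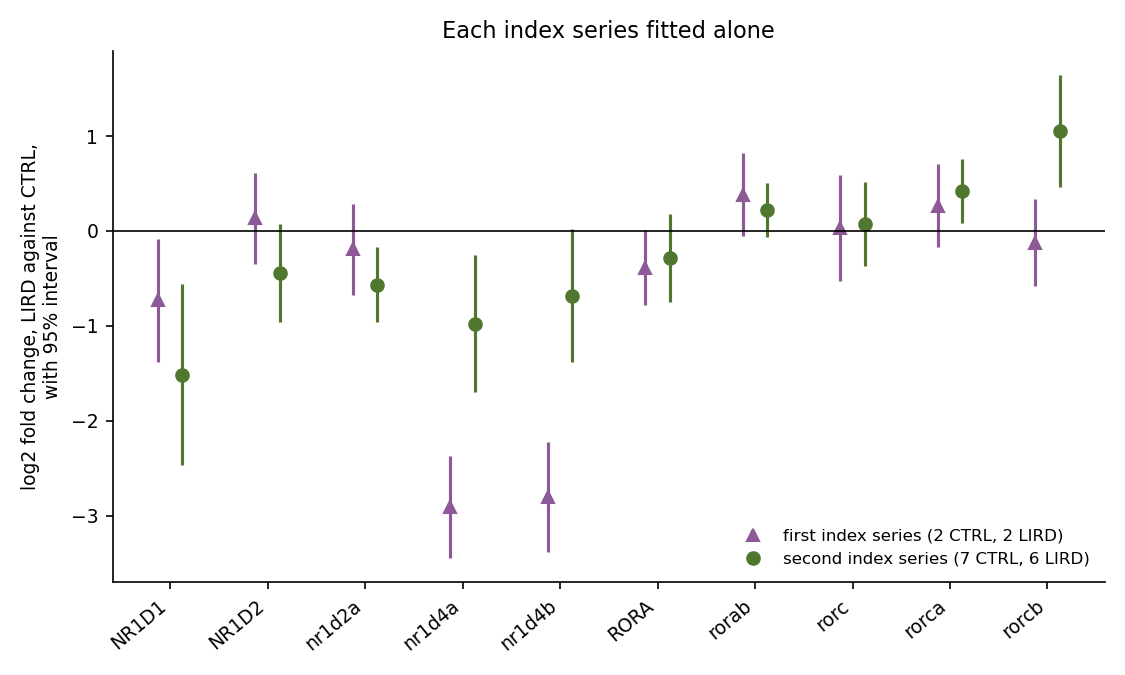
Log2 fold change of each receptor gene (LIRD against CTRL) in the first index series (purple triangles, 2 CTRL and 2 LIRD libraries) and in the second (green circles, 7 CTRL and 6 LIRD libraries), each fitted alone with edgeR, with vertical lines for 95% intervals. The intervals of nr1d4a and nr1d4b in the first series lie below those in the second, and the interval of rorcb lies above 0 in the second series and spans 0 in the first.

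The opposed receptor classes were then set against each other within each library, as the mean log2 CPM of the 5 Rev-erb genes minus that of the 5 ROR genes. In CTRL this balance ran from 0.34 to 1.87 (median 1.14, mean 1.09 ± 0.46, SD, n = 9), and in LIRD from -0.72 to 0.59 (median -0.19, mean -0.12 ± 0.58, SD, n = 8). The level of 0 has no meaning of its own, since gene lengths were not used and the nearly silent rorc lowers the ROR mean, so only libraries are compared. LIRD replicates 1, 4, 5, 6 and 11 lay below every CTRL library. LIRD replicates 2, 9 and 10, at 0.45, 0.46 and 0.59, lay above CTRL replicate 5 at 0.34, so the conditions overlapped. The difference between the condition means was -1.204, or -1.10 with the near-identical pairs averaged. The Rev-erb mean was 7.13 in CTRL and 6.12 in LIRD, and the ROR mean was 6.04 and 6.24, so the larger share of the difference was on the Rev-erb side. The balance was built from members chosen with results in view, so it is given without a test.

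**Figure D3:**
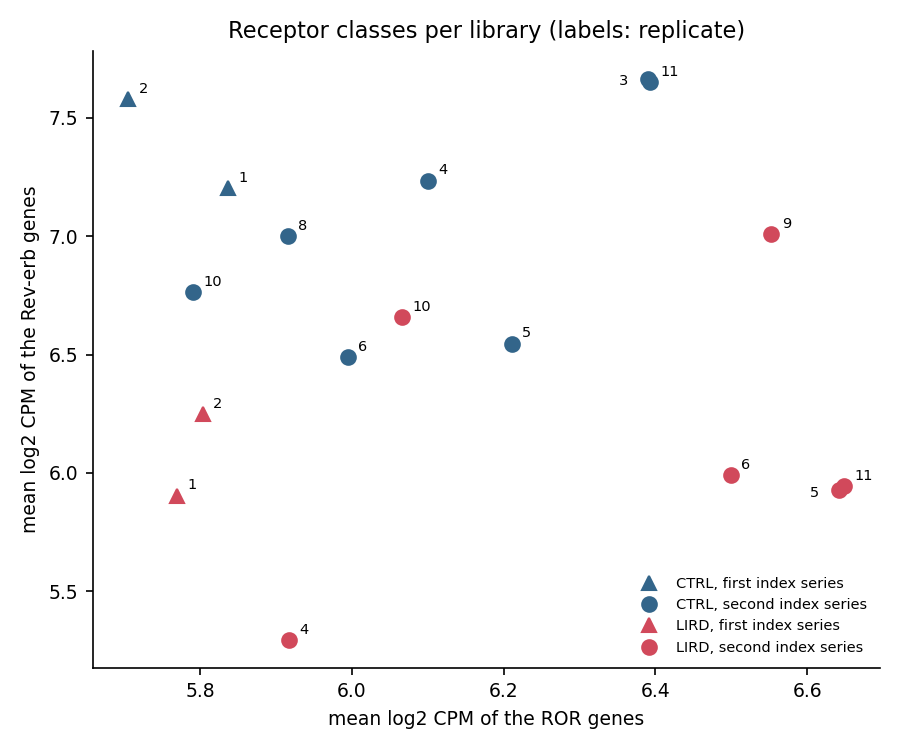
Mean log2 CPM of the 5 Rev-erb genes (y axis) against that of the 5 ROR genes (x axis) in each CTRL (blue) and LIRD (red) library, labelled by replicate number, with triangles for the first and circles for the second index series. LIRD replicates 1, 2, 4, 5, 6 and 11 lie lower on the y axis than every CTRL library, and the conditions overlap on the x axis.

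Libraries of the same condition also varied in their Rev-erb levels, and the genes varied together in part. Over 17 libraries, with each value taken as the deviation of log2 CPM from its condition mean, NR1D1 and NR1D2 had a Pearson r of 0.955 (Spearman rho 0.956, permutation p = 1e-05, the smallest that 100000 draws can give, adjusted p = 0.00015 over 105 pairs of genes). The value was 0.928 without the 2 libraries farthest from the median of NR1D1, 0.838 within CTRL and 0.986 within LIRD. NR1D1 and nr1d2a had an r of 0.790 (rho 0.775, permutation p = 0.00036, adjusted p = 0.0038), and NR1D2 and nr1d2a one of 0.732 (rho 0.733, permutation p = 0.0016, adjusted p = 0.0099). Without the farthest libraries these values were 0.725 and 0.624.

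The closest pair was nr1d4a with nr1d4b, at an r of 0.968 (rho 0.973, permutation p = 1e-05, adjusted p = 0.00015) and 0.943 without the farthest libraries. The 6 pairs of an nr1d4 gene with NR1D1, NR1D2 or nr1d2a had lower values over all libraries, from 0.102 to 0.374, and 0 of them passed. Within CTRL the same pairs had an r of 0.710 to 0.953, and within LIRD one of -0.163 to 0.036. In the second series alone 4 of the 6 passed, at 0.869 and 0.889 for nr1d2a with nr1d4a and nr1d4b (adjusted permutation p = 0.0091 for both), 0.689 for NR1D1 with nr1d4a (0.036) and 0.687 for NR1D2 with nr1d4a (0.032). All 10 Rev-erb pairs had a positive r, with an adjusted p under 0.05 for 4 of them, and for 8 in the second series. That series holds both near-identical pairs of libraries, counted there as separate libraries. Over all libraries with those averaged, 4 Rev-erb pairs passed. The 6 pairs of an nr1d4 gene with another Rev-erb gene then had an adjusted permutation p of 0.45 to 0.79.

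Of the 10 pairs of ROR genes, 3 passed. These were RORA with rorab (r = 0.807, rho 0.779, permutation p = 0.00052, adjusted p = 0.0049), rorab with rorca (r = 0.749, rho 0.782, permutation p = 0.00017, adjusted p = 0.0020) and rorca with rorcb (r = 0.858, rho 0.836, permutation p = 0.00011, adjusted p = 0.0014). Without the farthest libraries their r was 0.663, 0.659 and 0.839. RORA and rorab thus went together between libraries of a condition, although their log2 fold changes had opposite signs. Between the classes, 0 of 25 Rev-erb and ROR pairs passed over all libraries, and 0 with the near-identical libraries averaged. In the second series, where these count separately, 5 passed, all positive and all of RORA or rorab with NR1D1, NR1D2 or nr1d2a.

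The BMAL, CLOCK and NPAS2 activators went with rorca and rorcb of the ROR gamma group, and not with rorc. By Pearson r over all libraries, each of rorca and rorcb passed with all 6 activators, and no other ROR passed with any. Of the 30 ROR and activator pairs, 12 thus passed over all libraries, 10 with the near-identical pairs averaged and 6 in the second series. The highest of these values were those of rorcb with BMAL1 ENSDARG00000035732 (r = 0.955, rho 0.934, permutation p = 1e-05, adjusted p = 0.00015) and with npas2 (r = 0.952, rho 0.946, permutation p = 1e-05, adjusted p = 0.00015), at 0.920 and 0.908 without the farthest libraries and at 0.872 and 0.898 in the second series. By Spearman rho over all libraries, rorca did not pass with BMAL1 ENSDARG00000006791 or with bmal2 (adjusted permutation p = 0.082 and 0.085). In the second series npas2 was the only activator with which rorca passed (adjusted permutation p = 0.0091). Of the 30 Rev-erb and activator pairs, 12 had a positive r, up to 0.564 for nr1d4b with npas2 (adjusted permutation p = 0.13). Only 2 passed over all libraries, 1 with the near-identical pairs averaged and 0 in the second series. NR1D1 with BMAL1 ENSDARG00000035732, at -0.638, did not pass (adjusted permutation p = 0.10). The 2 that passed were of NR1D1, which ran against BMAL1 ENSDARG00000006791 (r = -0.748, rho -0.762, permutation p = 0.0027, adjusted p = 0.016) and against bmal2 (r = -0.750, rho -0.740, permutation p = 0.0062, adjusted p = 0.033), with -0.761 and -0.791 without the farthest libraries. In the second series alone these were -0.648 and -0.632 and did not pass (adjusted permutation p = 0.12 and 0.14). With the near-identical pairs averaged, NR1D1 with bmal2 did not pass either (adjusted p = 0.083). In all, 21 of 105 pairs passed, 18 with those pairs averaged and 22 in the second series. The share of passing pairs among other genes was not computed, so these counts cannot be called particular to the receptors.

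**Figure D4:**
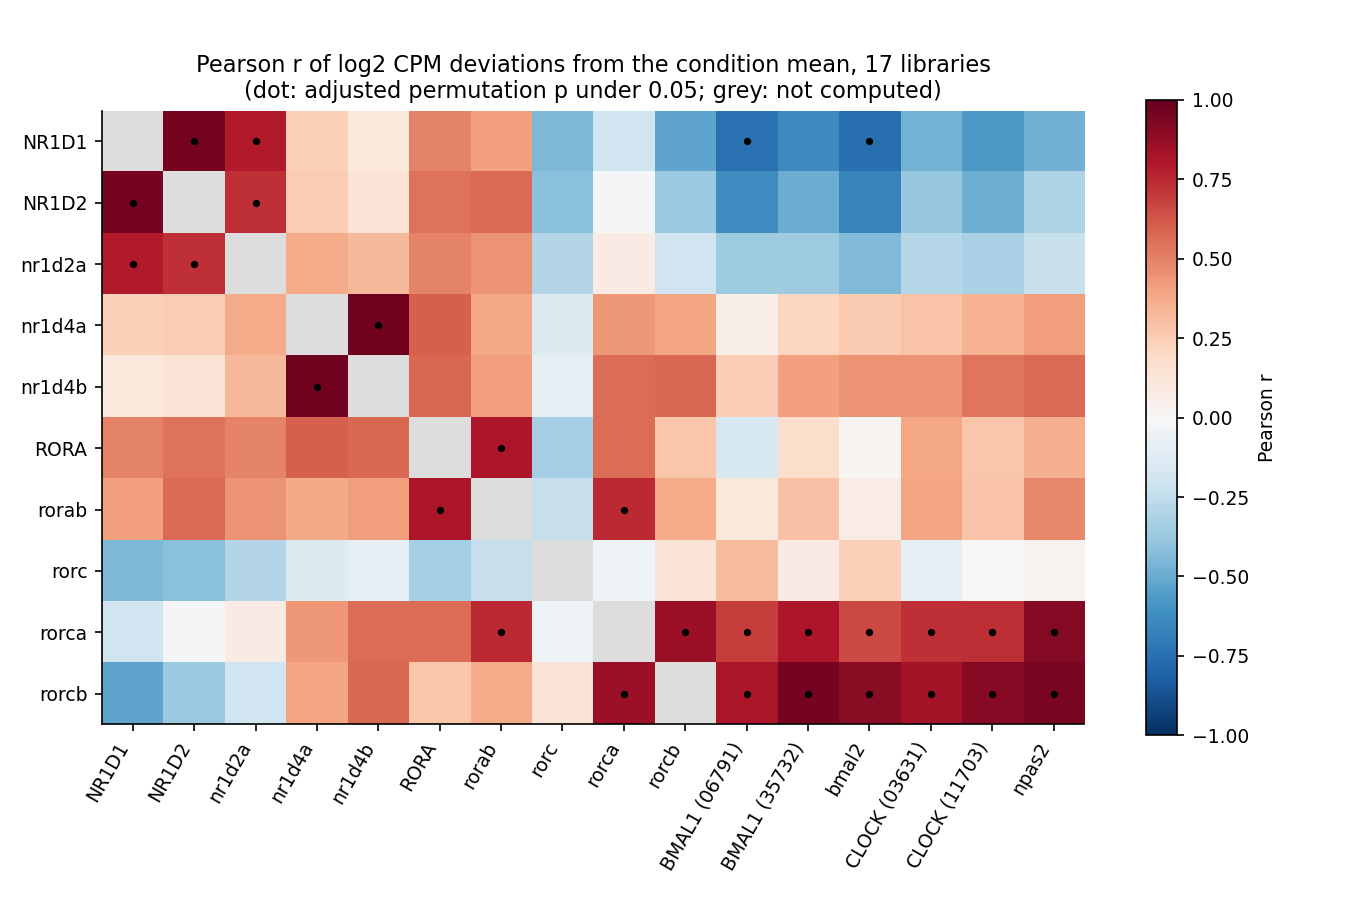
Pearson r (color scale from -1 to 1) of log2 CPM deviations from the condition mean over 17 libraries, for each receptor gene (rows) with the other receptors and the 6 activators (columns, genes that share a symbol told apart by the last digits of their Ensembl ID), where a dot marks an adjusted permutation p under 0.05. Over all libraries, dots join NR1D1, NR1D2 and nr1d2a, join nr1d4a with nr1d4b, and join rorca and rorcb with the activators.

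Over 21558 genes with a symbol, the genes whose deviations followed NR1D1 most closely were ciarta (r = 0.984), PER1 ENSDARG00000056885 (0.969), NR1D2 (0.955), rnf41l (0.955) and ZNF395 (0.953). The first of these encodes a clock repressor and the next a period protein. The lowest values belonged to SLC7A6 (-0.907), WIPF1 (-0.904), notchl (-0.869), si:ch211-229d2.5 (-0.869) and WIPF2 (-0.866). Closest to nr1d4a were nr1d4b (0.968), prelid1b (0.897), RBPMS2 (0.850), MYO3B (0.843) and tjap1 (0.843), none of them a core clock gene other than the paralog itself. Such lists were made over both conditions together, and none within 1 condition or 1 series. NR1D1 with nr1d4a, at 0.235 over all libraries, had an r of 0.953 within CTRL and -0.088 within LIRD.

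For rorcb the list was nfil3-5 (0.955), BMAL1 ENSDARG00000035732 (0.955), npas2 (0.952), PLPPR4 (0.939) and NRIP1 (0.935), so 3 of the 5 are clock genes or clock outputs. For rorca it was PI4K2A (0.927), WDR26 (0.919), npas2 (0.919), SLC25A1 (0.915) and ZHX3 (0.914). RORA was followed by arhgap12b (0.945), DUSP8 (0.945), CDK17 (0.944), TBX4 (0.940) and ppargc1b (0.938), the last a transcriptional coactivator of nuclear receptors. The list of rorab was ptp4a3b (0.919), JADE1 (0.918), zgc:113162 (0.910), MKNK2 (0.907) and kcnj11l (0.886). The nearly silent rorc had serpinh2 (0.842), stm (0.840), ak8 (0.832), SFRP2 (0.823) and sync (0.812). These values describe 17 libraries that differed in total counts and index series, and have no test. The part of technical differences between libraries in them was not tested.

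The partners and targets of the receptors in the clock were read from the same fit, and 0 of them were DEGs by edgeR or by DESeq2. All 6 activators had higher means in LIRD, with a median log2 fold change of 0.46 beside 0.017 over all genes tested. Of these, 3 had an unadjusted p under 0.05, and 4.9% of all genes tested were higher at such a p. The 3 were BMAL1 ENSDARG00000006791 at 0.50 (33.9 ± 6.17 CPM in CTRL, 47.9 ± 13.5 CPM in LIRD, edgeR FDR = 0.41), BMAL1 ENSDARG00000035732 at 0.55 (FDR = 0.56) and npas2 at 0.63 (FDR = 0.63). All 4 DEC and CIART repressors, which dampen the activators, had lower means at an unadjusted p under 0.05, against 2.74% of all genes tested. BHLHE41 had a log2 fold change of -1.34 (161 ± 71.2 CPM in CTRL, 64.0 ± 57.6 CPM in LIRD, edgeR FDR = 0.47), ciartb one of -0.73, ciarta one of -0.71 and BHLHE40 one of -0.60. The Rev-erb genes thus stood beside the DEC and CIART genes in direction, and rorab, rorca and rorcb beside the activators.

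The period and cryptochrome genes went both ways. PER1 ENSDARG00000056885 at -1.34, CRY2 at -0.89 and PER1 ENSDARG00000012499 at -0.86 were lower at an unadjusted p under 0.05, and cry3b at 0.96, cry4 at 0.47 and cry3a at 0.33 were higher. The median was -0.07 over 12 genes. Of all genes tested, 2.74% were lower and 4.9% higher at such a p. Among 10 tested PAR bZIP and nfil3 genes, which carry clock output and which Rev-erbs and RORs regulate in mammals in the case of nfil3, the D-box activators dbpb at -1.10 and dbpa at -0.68 were lower. The D-box repressors nfil3-5 at 1.05 (184 ± 61.7 CPM in CTRL, 381 ± 273 CPM in LIRD) and nfil3-3 at 1.23 were higher, the latter at under 1 CPM in the mean of either condition. The edgeR FDR of these 10 named genes lay between 0.41 and 0.65.

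**Figure D5:**
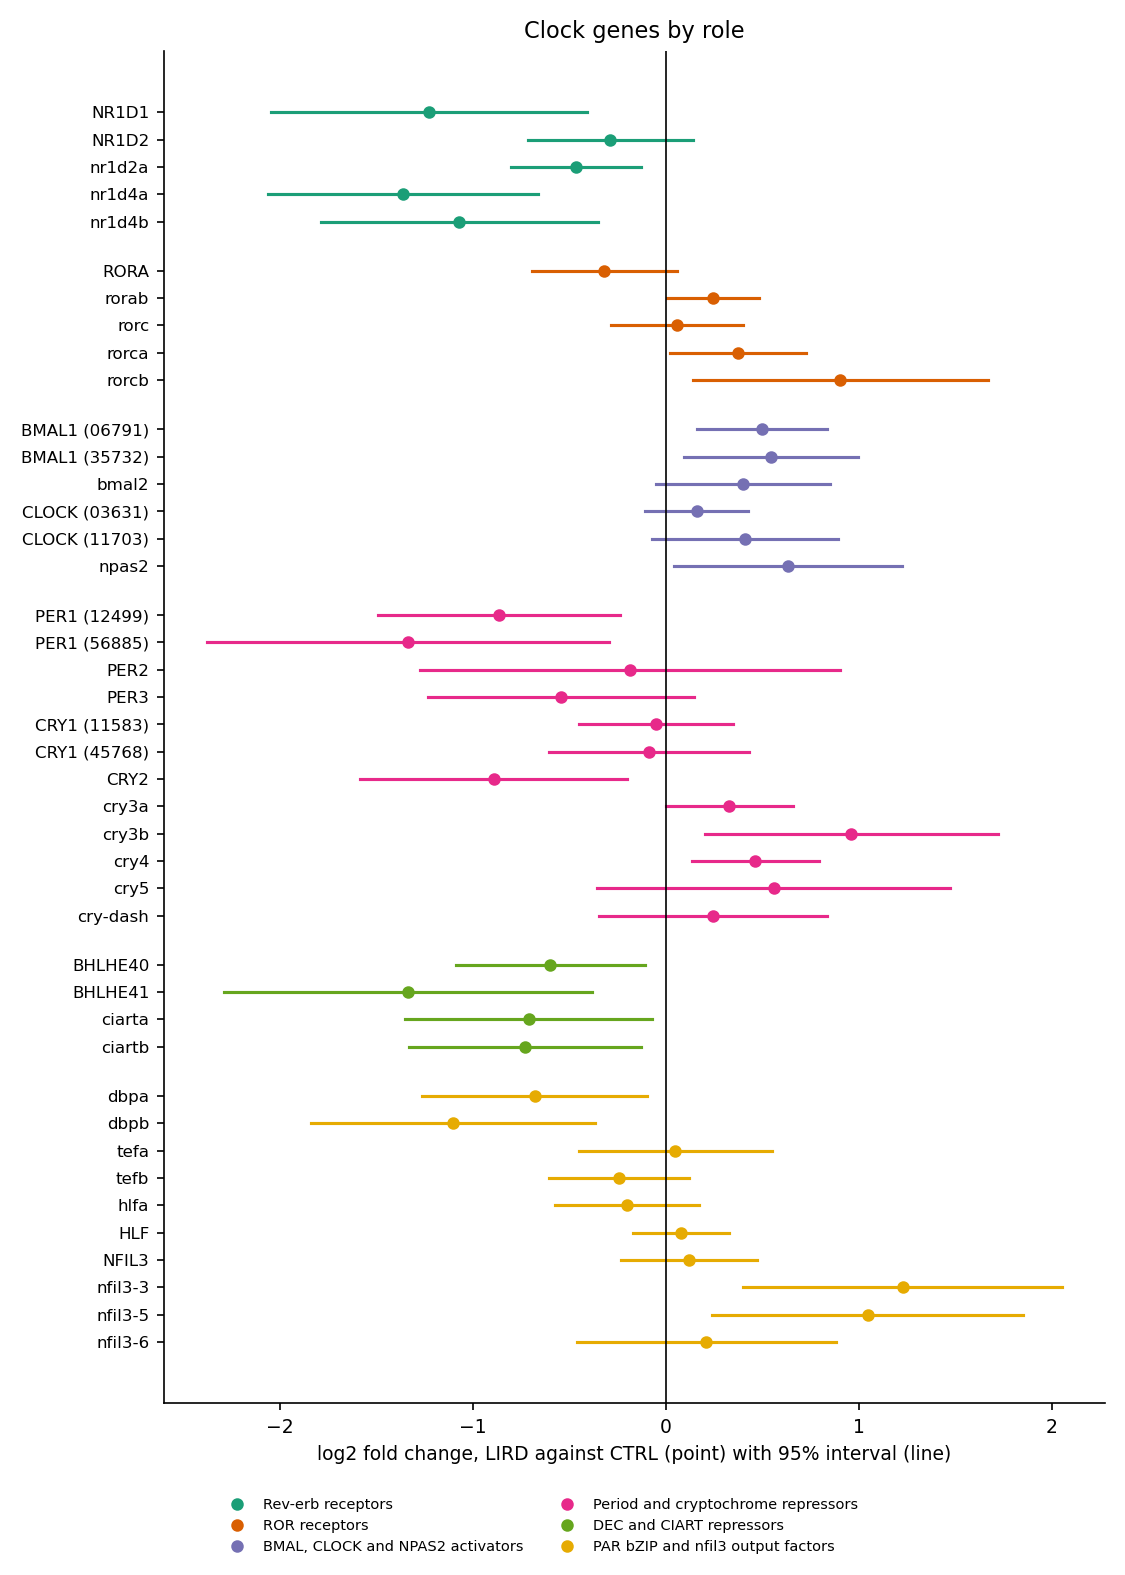
Log2 fold change (LIRD against CTRL, edgeR) of the receptor genes and of the clock genes around them, grouped by role in color, with horizontal lines for 95% intervals and the vertical line at 0. All Rev-erb, DEC and CIART points lie left of 0, all activator points and 4 of 5 ROR points lie right of it, and no gene shown passed the threshold for a DEG.

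Genes of the proteins through which the receptors act had LIRD means close to their CTRL means, but single LIRD libraries often lay outside the CTRL range. Of the 7 genes of the Rev-erb corepressor complex, 0 had an unadjusted p under 0.05, against 7.64% of all genes tested. The gene hdac3, the deacetylase of the complex, had a log2 fold change of 0.08 (edgeR FDR = 0.78). Its libraries held 31.2 to 37.6 CPM in CTRL and 28.3 to 48.9 CPM in LIRD, where 4 lay below and 4 above every CTRL library. Of 9 coactivator genes, 0 had such a p, with values from -0.27 (ppargc1b) to 0.04 (NCOA1), and 8 of them had lower means. DESeq2 called 0 genes of either list. LIRD libraries of tbl1xr1b, EP300 ENSDARG00000061108 and both genes listed as CREBBP also split into 4 below and 4 above every CTRL library. For GPS2, 0 lay outside the CTRL range. The split into 4 below and 4 above was also seen in the retinal cell markers PROX1 and both genes listed as FABP7. How often it occurs over all genes was not counted. Among 4 estrogen-related receptors, which belong to another branch of the nuclear receptors, esrrgb was lower at -0.76 (unadjusted p = 0.0025, edgeR FDR = 0.33).

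Of 11 genes that make or break down heme, the ligand of the Rev-erbs, 9 had higher means (median log2 fold change 0.20). At an unadjusted p under 0.05, 3 were higher, against 4.9% of all genes tested. These were HMOX1, the heme oxygenase that degrades it, at 0.96 (26.8 ± 12.3 CPM in CTRL, 52.0 ± 26.6 CPM in LIRD, edgeR FDR = 0.47), alas2, the erythroid form of the first enzyme of heme synthesis, at 0.86 (FDR = 0.18), and ALAD, the next enzyme, at 0.36 (FDR = 0.60). By edgeR 0 genes of this list were DEGs, and by DESeq2 there was 1, alas2. ALAS1, the form of the first enzyme found in most tissues, had a log2 fold change of -0.25 (FDR = 0.70). The gene alas2 is also on the erythrocyte list, whose summed level was higher in LIRD, and the part of blood cells in this list was not tested.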

How the data were processed

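Retinal poly(A) RNA-seq libraries (9 CTRL, 8 LIRD) were grouped by their labels. Per the labels and the study's methods, the authors used Trimmomatic 0.39 for trimming, STAR 2.7.9a for alignment to GRCz11 and featureCounts (Subread 2.0.1) for strand-specific counting over exons, and deposited the raw counts per gene. The methods give later versions of STAR and Subread. Total counts were 70932504 to 150347385 per library, and the spread between libraries limited precision more than counting did.

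The R package edgeR (4.0.16, R 4.3.3) gave TMM-scaled CPM, log2 CPM (prior count 2) and, after filterByExpr, robust quasi-likelihood tests, with Benjamini-Hochberg adjustment over all genes. The script was tested on simulated data. Relations used permutation tests (100000 draws within condition, two-sided). Alternatives were DESeq2 1.42.0, limma-voom (3.58.1), other scaling, no filter, index series, a replicate block, merged libraries and leaving out each library. Symbols matched 23499 of 25281 gene IDs (93.0%). The members and lists were chosen with earlier results of these data known. The text names all members, clock list genes with an unadjusted p under 0.05, those at the ends of a range, and the genes most alike.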

Additional observations from a re-analysis of the deposited data

Results flagged for a closer look

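In 20 groups of libraries (10 receptor genes in each of 2 conditions), 3 had a library far from its nearest neighbour by Dixon's criterion, which chance exceeds in about 1 of 20 groups. For rorab, LIRD replicate 4 stood low at 7.89 log2 CPM (237 CPM). For rorc, CTRL replicate 8 stood low at -0.17 log2 CPM (0.87 CPM) and LIRD replicate 10 at -0.43 log2 CPM (0.72 CPM). LIRD replicate 4 also held the lowest level of NR1D1 (38.4 CPM), NR1D2 (201 CPM), nr1d2a (148 CPM) and RORA (80.7 CPM), and CTRL replicate 8 decided the sign of the fold change of rorc.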

How the results depend on the processing

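In all 10 receptor genes, other scaling (upper quartile or size factors), limma-voom, no filter on low counts, the index series as a covariate and merged near-identical pairs kept the direction and the side of the threshold. DESeq2 called nr1d4a (-1.36), which made the count of Rev-erb DEGs 1. The first index series alone called nr1d4a (-2.91) and nr1d4b (-2.80), a count of 2, turned NR1D2 (0.13) and rorcb (-0.13) and left 0 ROR genes higher at an unadjusted p under 0.05. The replicate block, over 14 libraries whose shared numbers the labels do not tie to a common origin, turned rorc (-0.060) and gave 0 DEGs over all genes. Of 7 such pairs, 5 correlated above 0.1, at most at 0.475, and replicates 4 and 10 correlated negatively, at -0.486 and -0.646. In 4 pairs the CTRL library correlated best with the LIRD library of its own number. The difference between index series for rorc was -0.0026 with the near-identical pairs merged. DEGs over all genes numbered 9, against 80 in DESeq2, 17 with the index series as covariate, 3891 and 4 in the first and second series alone, and 5 with the pairs merged. Leaving out 1 library gave 7 DEGs (without CTRL replicate 2) to 39 (without LIRD replicate 10), log2 fold changes of rorc from -0.0055 to 0.16, and 0 to 3 ROR genes higher at an unadjusted p under 0.05. For NR1D1 those fits ranged from -1.48 to -1.07, for nr1d4a from -1.68 to -1.24 (FDR 0.065 to 0.45) and for rorcb from 0.77 to 1.06, and the balance of the classes from -1.31 to -1.11. The cause of these changes was not tested.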
